A study of Mus musculus with 31 samples.

Results

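Collagen chain genes were taken as the protein-coding mouse genes whose symbol is Col, a number, a and a number, with at least 1 count in at least 3 libraries. The rule found 42 genes among 16554 protein-coding genes that met the same count requirement. Col16a1 and Col8a2 were left out because they lie in a fixed stretch of chromosome 4 (mm10) around Trim63, the gene of MuRF1. The 42 genes comprise 11 fibrillar chains, 6 type IV chains of basement membranes, 6 type VI chains of beaded filaments and 19 others. A filter on low counts kept 37 of them for testing, all of the fibrillar and type IV chains, 5 of type VI and 15 of the others. Col6a4, Col9a2, Col9a3, Col10a1 and Col25a1 were not tested.

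The libraries are polyA RNA of whole gastrocnemius, a calf muscle, from mice 30 weeks old. Wild-type mice and mice labelled MuRF1 -/- were compared in both sexes on chow or on a lard-based high-fat diet (45%, given from 8 weeks of age), so the 8 groups differ in genotype, sex and diet and share tissue and age. The labels give no strain and do not say how the allele was made. Groups held 4 libraries each, except male knockout high fat and female knockout high fat with 3 each, and 1 library belonged to no group. Each library was placed by the animal number given for it, which in 19 of 31 records is not the number in its title, and which moved 4 libraries to another group than their title's. The labels name different animals, so libraries were treated as separate animals. Total counts ran from 9342028 to 14919379 per library.

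Several facts of the libraries bear on what follows. Trim63 stood at 0.47 to 6.24 CPM, a gene's counts relative to its library's total, in the 14 knockout libraries and at 108.54 to 253.61 CPM in the 16 wild-type libraries, so the ranges of the genotypes did not overlap. The libraries male wild type chow 3, wild type chow 1 of the females and their wild type high fat 4 lay between 50 and 150 CPM of Trim63. Female wild type chow 3, female knockout chow 1 and female knockout chow 3 held 22.38 to 47.38 CPM of the skin keratin gene Krt10, against at most 2.82 CPM elsewhere. Muscle fibre markers made up 107500 to 205100 scaled CPM in the grouped libraries, and the cartilage marker Acan was at 0 in 20 of the 30.

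Collagens are built from 3 chains wound into a triple helix. Fibrillar collagens form the load-bearing fibrils of tendon and of the connective tissue around muscle, type IV chains form the sheet of the basement membrane that wraps each fibre and capillary, and type VI chains form beaded filaments that tie that sheet to the fibrils. Other members decorate fibril surfaces, span membranes or anchor epithelia. In muscle most collagen mRNA is made by fibroblast-like cells between the fibres, and in whole tissue fewer such cells and less RNA per cell cannot be told apart.

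Levels were first compared between genes as scaled CPM per kilobase of exon, because long transcripts collect more reads. The length joins all annotated exons of a gene and can exceed that of the transcript made. It was 12426 bases for Col1a2 and 6563 for Col1a1. Ranks and shares depend on this choice: without division by length the median was 187.0 scaled CPM for Col1a2 and 144.6 for Col1a1. Col3a1, the chain of type III fibrils, was the most abundant with a median of 24.5 (3.35 to 49.1) over the 30 grouped libraries. Col1a1 followed at 22.0 (3.12 to 51.8), and its partner Col1a2 stood at rank 5 with 15.1 (2.47 to 40.4). Col6a1 stood at 18.9 (4.90 to 29.6), Col4a1 at 17.3 (6.22 to 28.6) and Col4a2 at 13.5 (7.51 to 25.2). The ranges of these genes overlap widely, so their order is that of the medians only. The 7 most abundant genes, with Col6a2 as the last, held 72.6% of the summed collagen level, and the 13 most abundant, down to the muscle-tendon junction collagen Col22a1, held 90.8%. The fibril-regulating type V chains Col5a3, Col5a1 and Col5a2 had medians of 5.07, 4.41 and 3.63. Outside the classical classes Col15a1, a collagen of the basement membrane zone, led with 6.38 (2.12 to 10.6), followed by Col22a1 with 3.60 (2.21 to 7.29) and Col7a1, the anchoring fibril chain of skin, with 2.07 (1.00 to 4.03). At the other end, Col10a1, a chain of growth-plate cartilage, had a median of 0, and Col6a4 and Col25a1 had medians of 0.00394 and 0.00725.

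**Figure D1:**
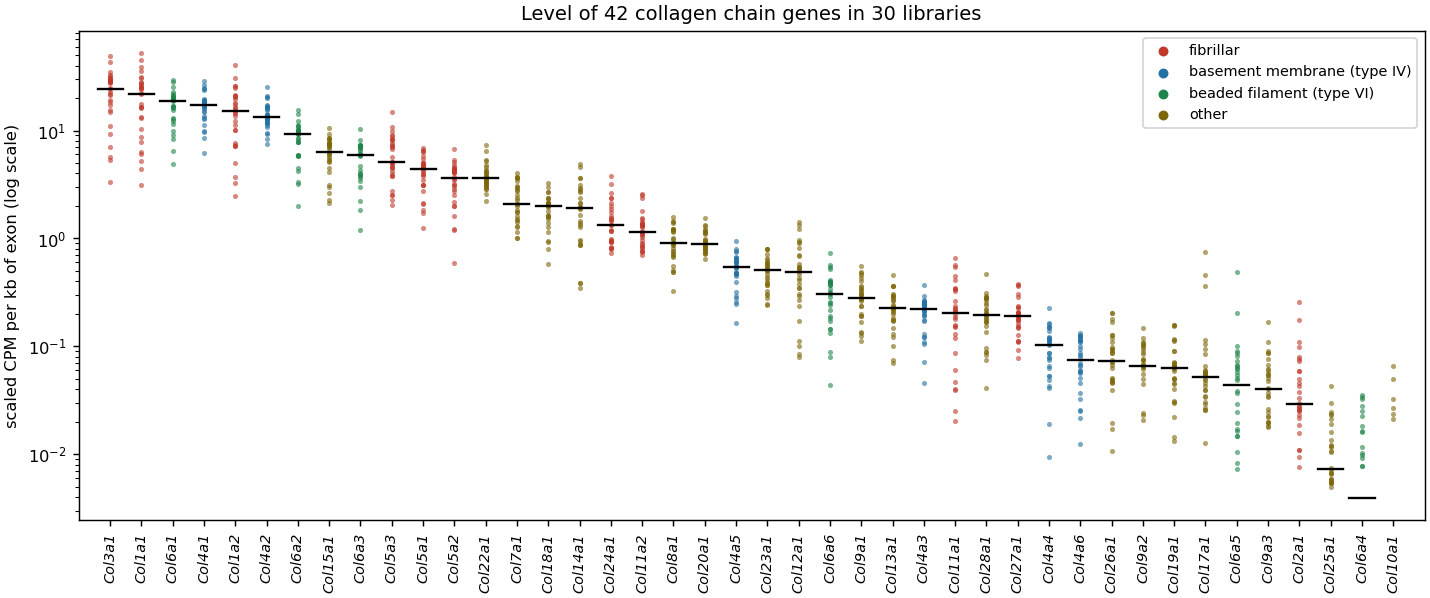
Level of each of the 42 genes as scaled CPM per kilobase of exon (log axis), ordered by median. Points are the 30 grouped libraries, black bars are medians, colours are classes and values of 0 are not drawn. Genes of the fibrillar, type IV and type VI classes take the first 7 places, and Col15a1 is the first of the other class.

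Annotated positions place several members side by side. Col4a1 and Col4a2 on chromosome 8 start back to back, with transcription starts at 11312826 on the minus strand and 11312805 on the plus strand, so the annotated transcripts overlap by 22 bases. Col4a4 and Col4a3 on chromosome 1 also face apart, with 71 bases between them, and so do Col4a6 and Col4a5 on X, with 1308 bases between them. Col3a1 and Col5a2 meet end to end on chromosome 1 with 24614 bases between them, and the type VI genes Col6a6, Col6a5 and Col6a4 follow each other on chromosome 9. Exon bases are shared with a gene on the opposite strand in 10 of the 42 members, at most 6.07% of a member's length (Col9a3).

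The bases before the start of 5 members are shown because they stand for genes that moved together or against the rest below. Each is the last 120 bases before the RefSeq transcription start (GRCm38.p6, the coordinates of mm10), 5′ to 3′ on the gene's strand, with capitals for TATAAA on the gene's strand or GGGCGG on either strand (CCGCCC when read on the other).
Col3a1: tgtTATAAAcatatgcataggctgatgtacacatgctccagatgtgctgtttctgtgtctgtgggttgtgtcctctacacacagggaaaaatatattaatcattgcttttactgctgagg
Col5a1: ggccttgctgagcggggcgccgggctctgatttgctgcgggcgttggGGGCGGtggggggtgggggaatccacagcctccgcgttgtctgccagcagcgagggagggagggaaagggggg
Col5a3: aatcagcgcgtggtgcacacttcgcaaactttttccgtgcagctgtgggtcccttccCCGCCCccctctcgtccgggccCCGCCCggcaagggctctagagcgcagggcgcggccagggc
Col6a3: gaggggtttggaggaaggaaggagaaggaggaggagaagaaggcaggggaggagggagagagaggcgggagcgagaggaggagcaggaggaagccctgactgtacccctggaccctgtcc
Col24a1: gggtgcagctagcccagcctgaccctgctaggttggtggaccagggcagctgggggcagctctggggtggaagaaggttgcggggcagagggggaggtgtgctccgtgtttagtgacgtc
The stretches lie at chr1:45311418-45311537 (+), chr2:27886305-27886424 (+), chr9:20815068-20815187 (-), chr1:90843972-90844091 (-) and chr3:145292352-145292471 (+), and none overlaps an annotated exon. RefSeq windows were at hand for 33 of the 42 genes, 36 windows in all. In the 250 bases before the start, GGGCGG on either strand was found in 55.6% of these windows and in 32.7% of the 32851 windows of all genes. TATAAA on the gene's strand was found in 13.9% and 7.59%, and CCAAT on either strand in 33.3% and 33.8%. These are matches of letters only.

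Knockout muscle held less collagen mRNA than wild-type muscle when sex and diet were averaged with equal weight. Of the 37 tested genes 14 fell and 0 rose (edgeR's quasi-likelihood test, Benjamini-Hochberg adjusted p at most 0.05 over 14024 genes), against 2.83% of all genes tested that fell. The median log2 fold change was -0.434 for the collagens and -0.01 for all genes. Of the fibrillar chains 6 of 11 fell, of type VI 4 of 5, of type IV 2 of 6 and of the other class 2 of 15. Class medians were -0.621 (fibrillar), -0.617 (type VI), -0.205 (type IV) and -0.270 (other).

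The largest fibrillar decreases on this average were Col3a1 (log2 fold change -0.80 ± 0.20, standard error throughout, adjusted p = 0.0208), Col1a1 (-0.78 ± 0.22, adjusted p = 0.0484) and Col5a3 (-0.73 ± 0.15, adjusted p = 0.00579), all by edgeR. Col5a1 was at -0.60 ± 0.13, Col5a2 at -0.58 ± 0.16 and Col27a1, a fibrillar chain known from cartilage, at -0.56 ± 0.16. Col1a2 missed the threshold at -0.64 ± 0.19 (adjusted p = 0.0583). Of type VI, Col6a2 (-0.62 ± 0.13), Col6a3 (-0.59 ± 0.13), Col6a1 (-0.54 ± 0.12) and Col6a6 (-0.65 ± 0.19) fell. Col6a5 stood at -1.12 ± 0.46 and did not pass (adjusted p = 0.16). Of type IV only the general chains Col4a1 (-0.47 ± 0.13) and Col4a2 (-0.43 ± 0.11) were called, and the chains of specialised membranes, Col4a3 to Col4a6, were not. Col15a1 (-0.57 ± 0.14) and Col14a1 (-0.54 ± 0.14), a fibril-surface collagen of the connective tissue sheaths, were the 2 other genes that fell. Col24a1, a fibrillar chain known from developing bone, stood at 0.01 ± 0.13. The calls of Col5a1 and Col6a2 held in all 40 alternatives, while that of Col1a1 was lost in 28, those of Col4a1 and Col6a6 in 27 each, that of Col27a1 in 20 and that of Col5a2 in 16. Markers of other cells moved with the same average: 5 of 10 of fibro-adipogenic progenitors, the fibroblast-like cells of muscle (median -0.290), 5 of 8 of macrophages (median -0.386) and 1 of 6 of endothelium were lower, and 0 of 8 of muscle fibres were called. Of 8 tendon, 8 skin, 6 Schwann cell, 6 adipocyte and 6 smooth muscle and pericyte markers 0 were called. Of all genes 2.83% were lower on this average. The part of these cells in the result was not tested. The count was 16 with DESeq2, 6 without the 3 libraries highest in Krt10 and 3 when libraries were grouped by their own titles. It was 8 without high-fat library 2 of the male or of the female knockouts. It was 9 without any 1 of high-fat library 2 of either sex's wild types, high-fat library 3 of the female knockouts, library 3 of the female wild types on chow, and libraries 2 and 4 of the female knockouts on chow.

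**Figure D2:**
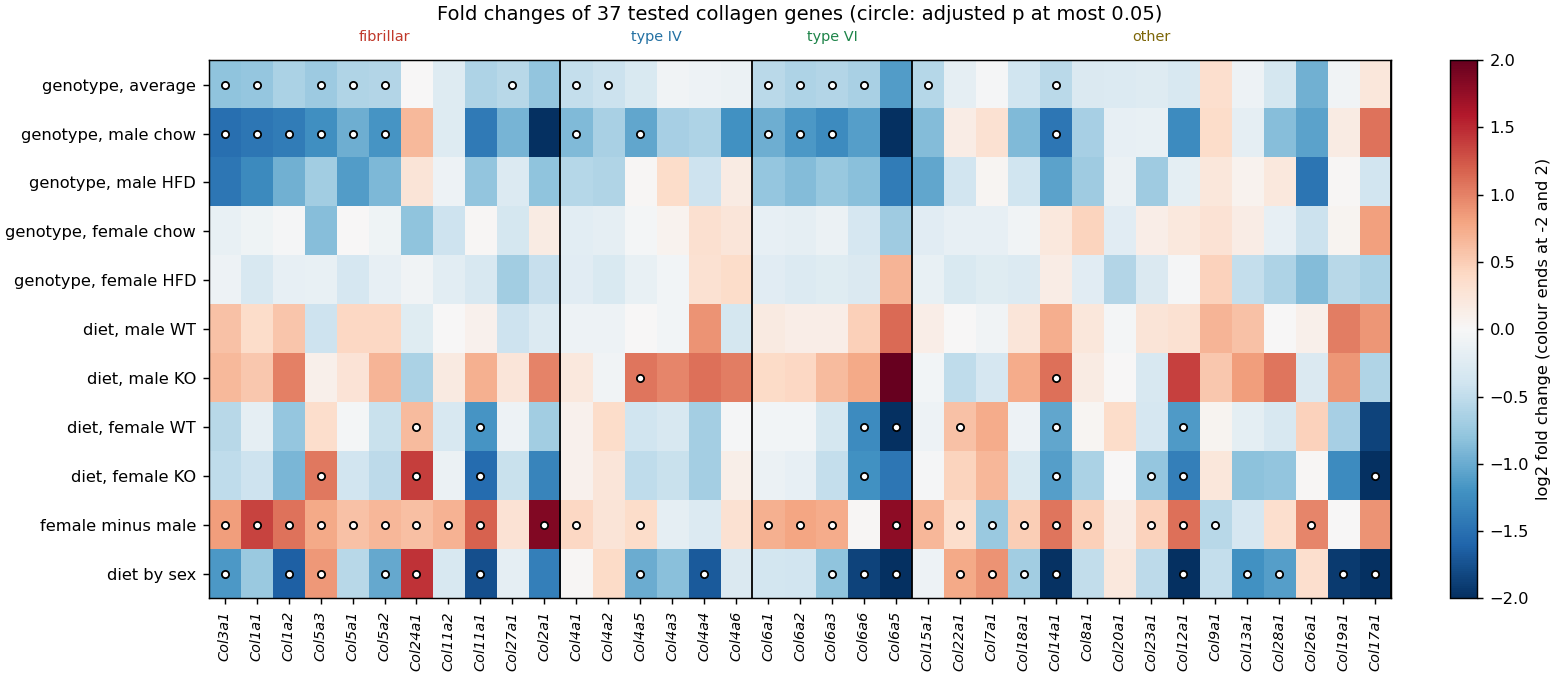
Log2 fold changes of the 37 tested collagen genes (columns, by class and level) in 11 comparisons (rows), with white circles where the adjusted p was at most 0.05. Genotype is knockout minus wild type, diet is high fat minus chow, and colours end at -2 and 2. The genotype rows carry circles on average and in male chow, and the diet-by-sex row carries 20.

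Within the 4 combinations of sex and diet, collagens were called by genotype in males on chow. There 12 of 37 collagens fell and 0 rose, against 5.31% of all genes that fell, with a median of -0.931 (all genes -0.023). Fibrillar chains had the lowest median, -1.226 with 6 of 11 called, followed by type VI at -1.150 with 3 of 5, type IV at -0.774 with 2 of 6 and the other class at -0.180 with 1 of 15.

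Col14a1 was at 10.1, 9.36, 13.6 and 6.23 scaled CPM in the 4 wild-type males on chow and at 2.73, 2.44, 2.69 and 6.16 in the 4 knockouts. Knockout 4 lay just below the lowest wild type, and the groups did not overlap. The log2 fold change was -1.45 ± 0.30 (edgeR adjusted p = 0.00565), and the call held under all 41 alternatives tried for it. Col6a3, the long chain of the type VI monomer, was at 70.6, 55.7, 80.8 and 48.1 in wild types and at 26.7, 14.4, 22.0 and 43.4 in knockouts. All knockouts lay below all wild types (-1.25 ± 0.25, edgeR adjusted p = 0.00522).

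Col3a1 was at 223, 171, 269 and 153 in wild types and at 55.5, 32.9, 52.3 and 147 in knockouts (-1.50 ± 0.38, edgeR adjusted p = 0.0208). Col1a1 was at 109, 88.4, 158 and 57.1 in wild types and at 34.2, 20.5, 29.1 and 67.3 in knockouts (-1.44 ± 0.44, edgeR adjusted p = 0.0489). For Col1a1 wild type 4 lay below knockout 4, so the groups overlapped, and the call was lost in 24 of the 30 fits that left out 1 library. Col4a1 was at 138, 138, 198 and 94.9 in wild types and at 74.2, 46.4, 63.3 and 126 in knockouts (-0.88 ± 0.26, edgeR adjusted p = 0.0409), again with wild type 4 below knockout 4. In every one of these genes knockout 4 was the highest of its group, and in each wild type 4 was the lowest.

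The remaining decreases in male chow were Col1a2 (-1.41 ± 0.38), Col5a3 (-1.23 ± 0.29), Col5a2 (-1.18 ± 0.31), Col6a2 (-1.15 ± 0.25), Col4a5 (-1.04 ± 0.28), Col6a1 (-0.98 ± 0.24) and Col5a1 (-0.98 ± 0.25). Col12a1, a fibril-surface collagen close to Col14a1 in structure, stood at -1.26 ± 0.48 and was not called (adjusted p = 0.117). Col24a1 and Col7a1 had positive values, 0.65 ± 0.24 and 0.30 ± 0.27, neither called. The count rose to 21 without male knockout chow 4 and was 3 to 6 without any 1 of male knockout chow 1, 2 or 3 or male wild type chow 1 or 3. It was 16 with DESeq2, 7 without the 3 libraries of intermediate Trim63, 6 by the libraries' own titles and 1 when these 2 groups were fitted alone.

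Markers of some other cells moved with this comparison, in which 5.31% of all genes fell. All 10 markers of fibro-adipogenic progenitors fell in male knockouts on chow (median -0.821), with a summed level of 1279 to 1682 scaled CPM in wild types and 505.5 to 1282 in knockouts. Of 8 macrophage markers 7 fell, with sums of 56.7 to 97.4 and 24.1 to 63.7, and of 6 endothelial markers 5 fell, with sums of 201.6 to 293.7 and 123.3 to 224.0. Of 8 muscle fibre markers 0 were called, with sums of 136400 to 177300 and 165200 to 205100. No marker of these 4 lists was at 0 in any grouped library. In the further lists 1 of 8 tendon and 2 of 6 smooth muscle and pericyte markers fell. Of 6 Schwann cell, 6 adipocyte and 8 skin markers 0 were called. The part of these cells in the collagen result was not tested.

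**Figure D3:**
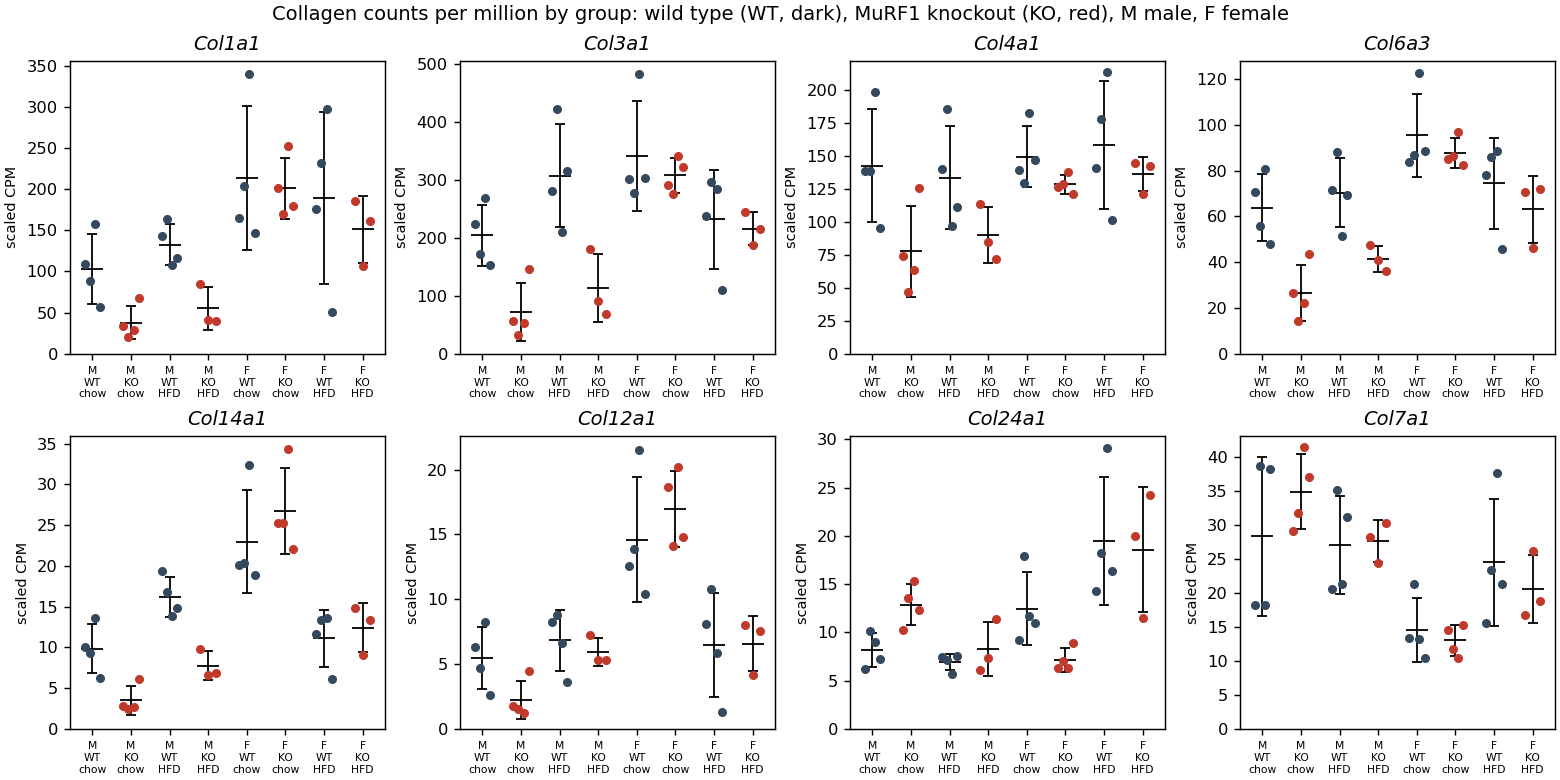
Scaled CPM of 8 collagen genes in each library (points), with group mean and SD (bars), by sex, genotype and diet. Male knockouts on chow lie low for Col1a1, Col3a1, Col6a3 and Col14a1, with knockout 4 the highest of its group, and females on chow lie high for Col12a1 and Col14a1.

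In the other 3 strata no collagen passed the test for genotype. In males on high fat 0 of 37 were called by edgeR against 0.264% of all genes, 16 had an unadjusted p under 0.05, and DESeq2 called 3. A fit of these 2 groups alone called 6. The median there was -0.607. Col3a1 was at 281, 422, 209 and 316 in these wild types and at 180, 90.6 and 68.5 in the 3 knockouts, without overlap (-1.44 ± 0.42, edgeR adjusted p = 0.175). Col14a1 was at 19.4, 16.8, 13.8 and 14.8 against 9.76, 6.60 and 6.81 (-1.07 ± 0.29, edgeR adjusted p = 0.124). In females on chow 0 were called against 0.0927% of all genes, with 2 at an unadjusted p under 0.05, 0 by DESeq2 and a median of -0.091. In females on high fat 0 were called against 0.0713%, with 1 at an unadjusted p under 0.05, 0 by DESeq2 and a median of -0.243. Col3a1 overlapped between genotypes in both, at 277 to 482 and 275 to 341 on chow and at 109 to 296 and 188 to 244 on high fat.

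The genotype difference itself was compared between the sexes. The edgeR interaction called 0 of 37 collagens (0.0285% of all genes), 13 had an unadjusted p under 0.05, and DESeq2 called 2. Col14a1 came nearest, 1.44 ± 0.28 higher on the log2 scale for the genotype effect in females than in males (edgeR adjusted p = 0.0501). Next were Col5a1 (0.89 ± 0.25) and Col24a1 (-0.89 ± 0.25), both not called. Without male knockout chow 4 the interaction called 10 collagens. The genotype-by-diet interaction called 0 by edgeR and by DESeq2, against 0.107% of all genes, with 1 at an unadjusted p under 0.05.

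Females carried more collagen mRNA than males on the average of genotype and diet. Averaged over genotype and diet 24 of 37 genes were higher, against 17.4% of all genes, and 2 were lower, against 13.4%. The median female-minus-male log2 difference was 0.591 for collagens and 0.016 for all genes. Higher in females were 10 of 11 fibrillar chains, 4 of 5 type VI chains, 2 of 6 type IV chains and 8 of 15 others. The call held in every alternative for 22 of the 26 genes. Sex was not tested within a genotype and diet, and the average does not hold in each. In wild types on high fat mean Col3a1 was 231.6 scaled CPM in females and 307.0 in males, and Col14a1 11.1 and 16.2. Col1a1 was higher in females there, at 188.9 against 132.7.

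Col1a1 ran from 20.5 to 163.5 scaled CPM with a median of 85.1 in the 15 males and from 50.9 to 339.6 with a median of 179.5 in the 15 females (1.36 ± 0.22, edgeR adjusted p = 7.29e-05). Col1a2 differed by 1.08 ± 0.19 and Col3a1 by 0.84 ± 0.19. Col14a1 ran from 2.44 to 19.4 (median 9.36) in males and from 6.05 to 34.3 (median 18.9) in females (1.07 ± 0.14). Col12a1 differed by 1.11 ± 0.22 and the cartilage-type chains Col11a1 by 1.17 ± 0.26 and Col2a1 by 1.84 ± 0.38, the last from low levels of 0 to 0.462 in males and 0.202 to 2.40 in females. Ranges of the sexes overlapped for each of these genes. The other fibrillar chains higher in females were Col5a1 (0.59 ± 0.12), Col5a2 (0.67 ± 0.16), Col5a3 (0.76 ± 0.15), Col11a2 (0.69 ± 0.13) and Col24a1 (0.60 ± 0.13). Of type VI, Col6a1 (0.71 ± 0.12), Col6a2 (0.80 ± 0.13), Col6a3 (0.75 ± 0.13) and Col6a5 (1.79 ± 0.45) were higher. Col8a1, a network collagen of vessel walls (0.48 ± 0.13), Col15a1 (0.66 ± 0.14), Col18a1 (0.49 ± 0.14), Col22a1 (0.36 ± 0.09), Col23a1 (0.47 ± 0.13) and Col26a1 (0.98 ± 0.30) completed the list. Type IV differed least, with Col4a1 at 0.41 ± 0.13 and Col4a5 at 0.36 ± 0.14, while Col4a2 was not called at 0.26 ± 0.11 (edgeR adjusted p = 0.0663).

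The 2 genes lower in females were Col7a1 (-0.74 ± 0.14, edgeR adjusted p = 0.000337) and Col9a1, a fibril-associated chain best known from cartilage (-0.56 ± 0.17). Col7a1 ran from 18.2 to 41.4 (median 30.3) in males and from 10.3 to 37.6 (median 15.6) in females. On chow the females reached 21.3 and the males 41.4. Markers moved alongside the sex difference. Higher in females were 10 of 10 fibro-adipogenic progenitor, 7 of 8 tendon, 7 of 8 macrophage and 6 of 6 Schwann cell markers. So were 3 of 6 adipocyte and 2 of 6 smooth muscle and pericyte markers. Of 8 muscle fibre markers 3 were lower, and of 6 endothelial and 8 skin markers 0 were called. Of all genes 17.4% were higher and 13.4% lower. The summed tendon markers ran from 93.2 to 273.5 in males and from 76.2 to 537.2 in females. The part of these cells was not tested.

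**Figure D4:**
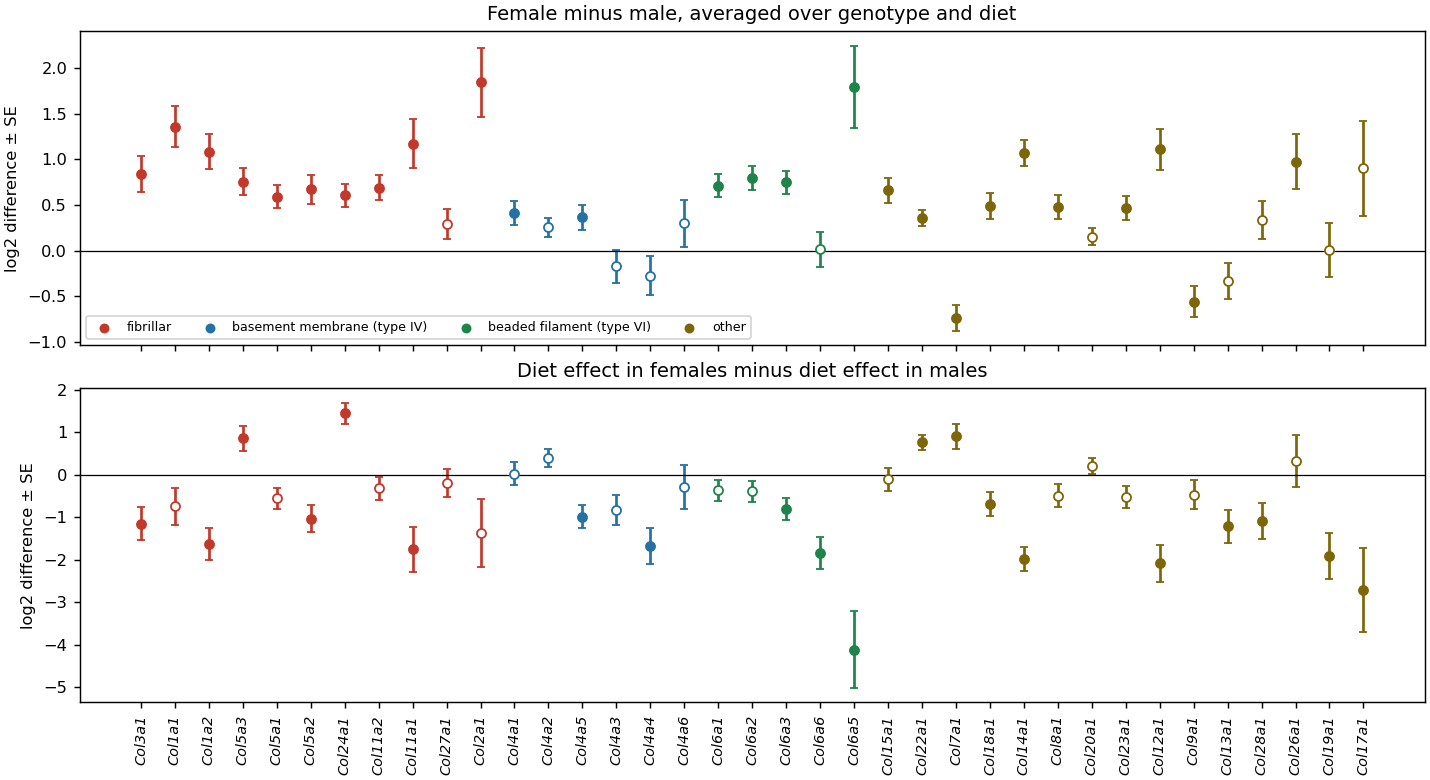
Log2 difference ± SE of each tested collagen gene between females and males (top) and between the diet effects of females and males (bottom), with filled points where the adjusted p was at most 0.05. In the top panel 24 filled points are above 0 and 2 below, and in the bottom panel 4 are above and 16 below.

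High-fat feeding gave no collagen calls when averaged over sex and genotype. There 0 of 37 were called by edgeR and by DESeq2, against 0.827% of all genes, and 4 had an unadjusted p under 0.05. The effects of the diet differed between the sexes for 20 of the 37 genes. For 16 the diet effect was lower in females than in males, against 23.6% of all genes, and for 4 it was higher, against 21.6%. The 4 were Col24a1 (1.45 ± 0.25), Col7a1 (0.90 ± 0.29), Col5a3 (0.86 ± 0.29) and Col22a1 (0.77 ± 0.18). Of the 20 calls 13 held in every alternative, and 15 genes were called without the 3 libraries highest in Krt10, all of which are females on chow.

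Of the fibril-surface collagens Col14a1 was at -1.98 ± 0.28 (edgeR adjusted p = 7.89e-06), and Col12a1 at -2.09 ± 0.44. Of type VI, Col6a6 was at -1.85 ± 0.38 and Col6a5 at -4.12 ± 0.91. In wild types Col14a1 went from 10.1, 9.36, 13.6 and 6.23 on chow to 19.4, 16.8, 13.8 and 14.8 on high fat in males, and from 20.1, 20.4, 32.4 and 18.9 to 11.6, 13.3, 13.6 and 6.05 in females. In both sexes the diets did not overlap, in opposite directions. Col1a2 had an interaction of -1.63 ± 0.38 (called), and its partner Col1a1 stood at -0.74 ± 0.44 (edgeR adjusted p = 0.175). Col4a5 (-0.99 ± 0.27) and Col4a4 (-1.68 ± 0.43) were called, while their neighbours Col4a6 (-0.29 ± 0.51) and Col4a3 (-0.83 ± 0.36) were not. The difference between partner chains was not tested. Col4a1 stood at 0.03 ± 0.27. Col3a1 (-1.15 ± 0.39), Col5a2 (-1.03 ± 0.31) and Col6a3 (-0.80 ± 0.25) were also called. So were Col11a1 (-1.75 ± 0.53), Col13a1 (-1.22 ± 0.39), Col17a1 (-2.72 ± 1.00), Col18a1 (-0.69 ± 0.28), Col19a1 (-1.91 ± 0.55) and Col28a1 (-1.10 ± 0.42), of which Col13a1 is a membrane-spanning collagen of the neuromuscular junction. Col17a1 passed the filter on low counts only through the libraries highest in Krt10, so its call is not read as an effect of the diet.

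In wild-type females 2 of 37 genes rose on high fat, against 12.9% of all genes, and 5 fell, against 12.5%. These counts lie near or under the shares of all genes, so they are no result about collagens as a list. Col22a1, found at the muscle-tendon junction, was at 30.0, 34.1, 47.8 and 26.6 on chow and at 48.8, 58.9, 67.1 and 33.2 on high fat (0.58 ± 0.17, edgeR adjusted p = 0.0125). Col24a1 was the other (0.64 ± 0.23). Those that fell were Col6a5 (-2.84 ± 0.62), Col6a6 (-1.26 ± 0.35), Col11a1 (-1.18 ± 0.44), Col12a1 (-1.14 ± 0.39) and Col14a1 (-1.04 ± 0.25). The count of 7 was 4 without female wild type chow 3 and 3 without female wild type high fat 3. It was 4 without the 3 libraries highest in Krt10 and also without the 3 of intermediate Trim63, and 0 by the libraries' own titles.

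In knockout females 2 rose, against 10.4% of all genes, and 6 fell, against 8.79%. Col24a1 was at 6.35, 7.05, 6.26 and 8.90 on chow and at 20.0, 11.5 and 24.2 on high fat, without overlap (1.38 ± 0.26, edgeR adjusted p = 0.00164). Col5a3 was at 27.1, 30.4, 31.0 and 26.0 on chow and at 56.9, 61.4 and 60.6 on high fat, also without overlap (1.06 ± 0.30, edgeR adjusted p = 0.0178). Col12a1 was at 18.7, 14.1, 20.2 and 14.8 on chow and at 8.00, 4.14 and 7.57 on high fat (-1.36 ± 0.44, edgeR adjusted p = 0.0325). Col14a1 (-1.11 ± 0.28), Col6a6 (-1.21 ± 0.41), Col11a1 (-1.53 ± 0.51) and the membrane-spanning Col23a1 (-0.77 ± 0.26) fell as well. The remaining call was Col17a1 (-3.30 ± 0.93), also membrane-spanning. It passed the filter on low counts only through the 3 libraries highest in Krt10, so its call is not read as an effect of the diet. With the offset for GC content and length, 3 rose and 3 fell. The count of 8 was 3 without female knockout chow 1 or 3, 1 and 4 without female knockout high fat 2 or 3, and 0 without the 3 libraries highest in Krt10, of which 2 belong to this comparison. Without those 3, Col24a1 was at 1.22 (adjusted p = 0.0665) and Col5a3 at 1.09 (adjusted p = 0.119).

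Col17a1, a transmembrane collagen of the attachment of epidermis to its basement membrane, was at 2.75, 2.17 and 4.51 scaled CPM in the 3 libraries highest in Krt10. In the other 27 grouped libraries it was at most 0.693. Without any 1 of those 3 libraries Col17a1 did not pass the filter on low counts and was not tested. Its calls thus come from the values that admitted it to the test. Of 8 skin markers 3 fell with the diet in knockout females, against 8.79% of all genes. The skin marker sum in these females ran from 1.69 to 101.8 on chow and from 1.23 to 2.30 on high fat. Krt5 and Krt14 were each at 0 in 26 of the 30 libraries. The part of skin in the collagen values was not tested beyond the fit without these libraries. In the diet-by-sex interaction 7 of 8 tendon markers (median -2.151) and 7 of 10 fibro-adipogenic progenitor markers (median -0.751) were lower and 6 of 8 muscle fibre markers were higher. Also lower were 6 of 8 macrophage (median -0.869) and 4 of 6 adipocyte markers (median -1.312). So were 3 of 6 Schwann cell, 3 of 6 smooth muscle and pericyte and 2 of 6 endothelial markers. Of all genes 23.6% were lower and 21.6% higher in that interaction. Tendon sums ran from 265.3 to 537.2 in wild-type and 360.0 to 524.7 in knockout females on chow, and from 76.2 to 300.7 and 184.1 to 251.9 on high fat. The part of these cells was not tested.

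In wild-type males on high fat 0 of 37 were called by edgeR and by DESeq2, against 0.349% of all genes, and 3 had an unadjusted p under 0.05. In knockout males 2 rose, against 4.01% of all genes, and 0 fell. These were Col4a5, a basement membrane chain (1.07 ± 0.30, edgeR adjusted p = 0.0348), at 1.11, 1.73, 1.91 and 2.13 on chow and at 4.03, 3.26 and 3.73 on high fat, and Col14a1 (1.10 ± 0.32, edgeR adjusted p = 0.0437), at 2.73, 2.44, 2.69 and 6.16 and then 9.76, 6.60 and 6.81. Neither overlapped between diets. A count of 2 of 37 is near the share of all genes, so it is no result about collagens as a list. The count was 11 without male knockout chow 4 and 0 without any 1 of the other 6 libraries of these groups. It was 1 without male wild type high fat 4 or female knockout high fat 3, and 4 without female wild type high fat 4. With the offset for GC content and length, 2 rose and 1 fell.

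The make-up of the collagen pool also varied, given here per length and without a test. The size of each share depends on the exon lengths used. Fibrillar chains held 52.5% ± 3.6 (SD, n = 4) of the summed level in wild-type and 53.1% ± 1.8 (n = 4) in knockout females on chow, against 42.7% ± 1.8 (n = 4) in wild-type and 33.5% ± 3.4 (n = 4) in knockout males on chow. On high fat the shares were 45.3% ± 5.5 (n = 4), 47.2% ± 1.6 (n = 3), 48.8% ± 1.7 (n = 4) and 39.6% ± 4.7 (n = 3) in the same order. Type IV held 28.1% ± 1.4 in knockout males on chow and 15.8% ± 0.94 in knockout females on chow, the highest and lowest group means. Type VI kept between 16.5% and 22.0% in all 30 libraries. The summed level itself was 149.7 ± 36.3 (SD, n = 4) in wild-type and 76.6 ± 30.2 (n = 4) in knockout males on chow.

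**Figure D5:**
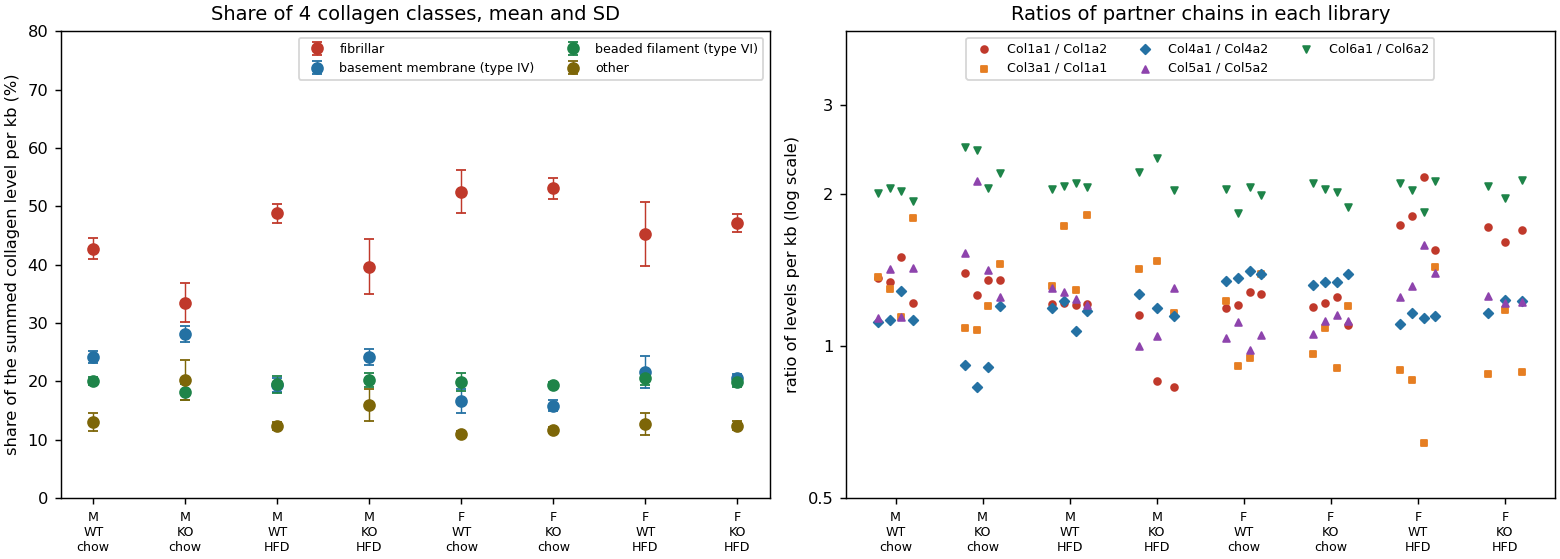
Left, share of each class in the summed collagen level per kilobase, as group mean and SD. Right, ratio of the levels per kilobase of partner chains in each library (log axis), with Col3a1 / Col1a1 as a pair from different molecules. The fibrillar share is lowest in male knockouts on chow, and Col1a1 / Col1a2 is highest in both groups of females on high fat.

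The spread of the ratio between partner chains differed from pair to pair. The size of a ratio depends on the joined exon lengths, such as 4380 bases for Col6a1 and 8326 for Col6a2. Its fold spread over libraries does not. Col6a1 to Col6a2, partners in each type VI monomer, had a median ratio of 2.05 and stayed between 1.83 and 2.47 over 30 libraries in which the Col6a2 level itself ranged 7.70-fold. Col6a3 to Col6a1 stayed between 0.245 and 0.374. Col4a1 to Col4a2, partners in the common type IV network, ranged from 0.829 to 1.41, and was lowest in male knockouts on chow, at 0.829 to 1.20 with a median of 0.913. Col1a1 to Col1a2, which join in type I collagen, ran from 0.828 to 2.16. The ratio was 1.55 to 2.16 in wild-type and 1.60 to 1.72 in knockout females on high fat, and lower in every library of the other 6 groups. In male knockouts on high fat it was 0.828 to 1.15. Col5a1 to Col5a2 ran from 0.982 to 2.12. Among these partners Col1a1 to Col1a2 had the widest spread, 2.61-fold. Col3a1 and Col1a1 belong to different molecules, types III and I, and their ratio ran from 0.641 to 1.82, a 2.83-fold spread.

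Genes that process, bind or break down collagen were read beside the chains. The breakdown list holds proteases and also the protease inhibitors Timp1, Timp2, Timp3 and Timp4, so its counts mix both kinds. Of 32 tested processing genes 4 fell and 1 rose on the genotype average, where 2.83% of all genes fell, and 10 fell in male chow, where 5.31% did. Bmp1, which trims procollagen ends, was at -0.37 ± 0.08 on average and -0.62 ± 0.16 in male chow, and its enhancer Pcolce at -0.42 ± 0.11 and -0.91 ± 0.21. The crosslinking oxidase Loxl2 fell in male chow (-1.38 ± 0.37). Of 9 tested breakdown genes 4 fell on average and 4 in male chow, led in both by the proteases Mmp2 (-0.62 ± 0.12 and -1.20 ± 0.24), Mmp14 (-0.82 ± 0.17 and -1.57 ± 0.35) and Ctsk (-0.67 ± 0.15 and -1.33 ± 0.32). Of 8 tested receptors 3 fell in male chow, the discoidin receptor Ddr2 (-0.73 ± 0.19) and the integrin chains Itga11 (-1.01 ± 0.26) and Itga1 (-0.82 ± 0.26).

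By sex 21 of 32 processing genes were higher and 1 lower in females, 7 breakdown genes were higher and 1 lower, and 3 of 8 receptors were higher, beside 17.4% of all genes higher and 13.4% lower. The lysyl hydroxylase Plod2 led the increases (1.06 ± 0.11), and the 1 processing gene lower in females was Mia3, which loads procollagen for export (-0.48 ± 0.05). In the diet-by-sex interaction 9 of 32 processing genes were lower and 4 higher, 6 of 8 receptors were lower and 5 of 9 breakdown genes were lower. Of all genes 23.6% were lower and 21.6% higher there, so the counts of processing genes are no result about that list. Ddr2 showed the smallest p of the receptors (-1.85 ± 0.19), with diet effects of 1.08 ± 0.20 in male knockouts and -1.16 ± 0.18 and -1.13 ± 0.20 in wild-type and knockout females. The prolyl hydroxylase subunit P4ha2 went the other way (0.59 ± 0.09), rising in wild-type (0.49 ± 0.09) and knockout (0.52 ± 0.09) females. The protease inhibitor Timp3 was at -1.63 ± 0.22 in the interaction.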

How the data were processed

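The deposited values are unnormalized counts for 39017 Ensembl identifiers in each of 31 libraries. The tools bcl2fastq and featureCounts and the build mm10 are named per the submitters' processing notes. The kit marks strand per the labels, but the counting strand, like aligner and annotation release, is not given in the sources used here. Exons shared by genes on opposite strands therefore cannot be assigned.

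The members and gene lists were chosen with earlier results of these data known. Differences were tested in edgeR 4.0.16 (quasi-likelihood, robust, TMM scaling, filterByExpr minimum count 10, R 4.3.3) in 1 fit of 30 libraries and 8 groups, with 14 contrasts and Benjamini-Hochberg adjustment over all 14024 genes at 0.05. A standard error is the absolute log2 fold change over the root of F. The steps were tested on simulated data. Scaled CPM are CPM with TMM-adjusted totals, and levels per kilobase divide these by the joined length of all exons annotated in GENCODE M21. Named genes are every called member, up to 3 of highest level per class and up to 3 called genes per list. A count of 3 corresponds to 0.201 to 0.321 CPM, which covers counting error only. No 2 libraries of a group agreed within sampling noise (lowest chi-square per gene 4.67 over 42 pairs). Alternatives included DESeq2 1.42.0, other groupings and leaving out each library.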

Additional observations from a re-analysis of the deposited data

Results flagged for a closer look

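The 34 collagens called in at least 1 comparison were examined in the 6 groups of 4 libraries, and the other collagens were not. Of these 204 combinations of a gene and a group, 21 held 1 library set apart by Dixon's test. Its gap to its nearest neighbour, divided by the range of the group, exceeded the critical value. Chance alone exceeds that value in about 1 of 20 groups. Values are scaled CPM, and a count of 3 corresponds to 0.201 to 0.321 CPM. Every value given for Col6a5 and Col2a1 in male knockouts on chow lies under that level, as does the low Col19a1 value. Male knockout chow 4 was above its group for Col11a1 at 1.98 (others 0.260 to 0.509), Col12a1 at 4.43 (others 1.21 to 1.72), Col14a1 at 6.16 (others 2.44 to 2.73) and Col6a5 at 0.0790 (others 0 to 0). Male knockout chow 3 was above its group for Col11a2 at 7.45 (others 5.19 to 5.26). Female wild type chow 3 was above its group for Col14a1 at 32.4 (others 18.9 to 20.4), Col17a1 at 2.75 (others 0.295 to 0.574), Col18a1 at 21.2 (others 14.6 to 15.0), Col3a1 at 481.6 (others 277.4 to 303.5), Col5a1 at 56.4 (others 38.1 to 40.4), Col5a2 at 65.0 (others 40.9 to 42.4), Col6a3 at 122.5 (others 83.9 to 88.6) and Col6a5 at 4.56 (others 0.591 to 0.854). Male wild type chow 2 was above its group for Col17a1 at 0.275 (others 0.154 to 0.160) and Col27a1 at 4.82 (others 2.54 to 2.69). Female wild type high fat 4 was below its group for Col19a1 at 0.0992 (others 0.456 to 0.490) and Col23a1 at 1.39 (others 3.26 to 3.50). Male wild type chow 3 was above its group for Col26a1 at 1.46 (others 0.320 to 0.413). Male knockout chow 4 was below its group for Col2a1 at 0 (others 0.0867 to 0.102). Male wild type high fat 2 was above its group for Col4a5 at 5.14 (others 3.04 to 3.25). Female knockout chow 2 was below its group for Col6a6 at 2.92 (others 3.64 to 3.66).

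The effect of the diet differed between the sexes by the edgeR interaction for 20 genes. The log2 difference, females minus males, was negative for Col6a5 (-4.12), Col17a1 (-2.72), Col12a1 (-2.09), Col14a1 (-1.98), Col19a1 (-1.91), Col6a6 (-1.85), Col11a1 (-1.75), Col4a4 (-1.68), Col1a2 (-1.63), Col13a1 (-1.22), Col3a1 (-1.15), Col28a1 (-1.10), Col5a2 (-1.03), Col4a5 (-0.99), Col6a3 (-0.80) and Col18a1 (-0.69). It was positive for Col22a1 (0.77), Col5a3 (0.86), Col7a1 (0.90) and Col24a1 (1.45). Of these genes Col17a1 entered the test only through the libraries highest in Krt10.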

How the results depend on the processing

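Counts below are collagens called of 37 tested. None of the 89 calls of a gene in a comparison reversed in any of the alternatives, and 51 were lost in at least 1. Grouping all libraries by their own titles gave 3 for the genotype average, 6 for genotype in male chow, 4 for diet in male knockouts and 0 for diet in wild-type females. The ungrouped library is titled male knockout high fat although its Trim63 is at 107.1 CPM, near the lowest wild type (108.5). Every alternative by title counts it as a knockout, including the fit of 27 libraries below. Placing it by that title gave 9 for the genotype average and 4 for diet in male knockouts. A fit of 27 libraries kept those whose title and animal gave 1 group, plus the ungrouped library by its title. It changed diet in male knockouts to 9 and diet in wild-type females to 4. Without the filter on low counts the counts were 7 (genotype average), 1 (diet, male knockouts), 4 (diet, wild-type females) and 4 (diet, knockout females). Without the 3 libraries highest in Krt10 they were 6 (genotype average), 4 (diet, wild-type females), 0 (diet, knockout females) and 1 (genotype by sex). Without the libraries of intermediate Trim63 they were 7 (genotype, male chow), 2 (genotype, male high fat), 4 (diet, male knockouts) and 4 (diet, wild-type females). Fits of 2 groups alone gave 1 (genotype, male chow), 6 (genotype, male high fat), 5 (diet, male knockouts), 3 (diet, wild-type females) and 15 (diet, knockout females). Genotype in male high fat gave 3 with DESeq2 and 1 with the GC and length offset. Genotype by sex gave 2 with DESeq2, 1 with DESeq2 size factors and 1 with that offset. Leaving out 1 library gave 8 to 17 (genotype average), 3 to 21 (male chow), 0 to 3 (male high fat), 0 to 11 (diet, male knockouts), 3 to 9 (diet, wild-type females), 1 to 9 (diet, knockout females), 24 to 27 (sex), 0 to 10 (genotype by sex) and 17 to 25 (diet by sex). The cause of these changes was not tested.

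The fit with the replicate block called 16 (genotype average), 10 (male chow), 26 (sex), 20 (diet by sex) and 1 (genotype by sex). Same-numbered libraries correlated between -0.286 and 0.457 over 28 pairs of libraries, with 11 above 0.1. Of 56 libraries 21 were nearest to their own number in the partner group. The labels pair no libraries, and these values do not decide whether same-numbered ones share more than a number.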

Other observations

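The library whose animal number is in no title was placed in no group. It held Col1a1 at 74.4, Col1a2 at 122.8, Col3a1 at 206, Col4a1 at 126.6, Col6a3 at 55.3, Col14a1 at 13.4, Col24a1 at 4.54, Col12a1 at 4.74 and Col7a1 at 25.6 scaled CPM. Its Trim63 stood at 110.9 scaled CPM.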
